A study of Homo sapiens with 3 samples.

Results

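The 14-3-3 genes YWHAB, YWHAE, YWHAG, YWHAH, YWHAQ, YWHAZ and SFN were followed on 3 Affymetrix PrimeView arrays. The cells were FaDu, a squamous carcinoma line of hypopharyngeal origin. The treated ones had been kept for 48 h in medium with 10 µg/ml of NSC-631570, an extract of greater celandine (Chelidonium majus), at what the submitters call its half-maximal effective dose, and gave 1 array. The untreated cells of the same line had received the corresponding volume of distilled water and gave 2 arrays. All cells grew in RPMI medium with fetal calf serum and antibiotics. The members are all probe sets, the groups of short probes that each report 1 signal, that name exactly 1 of the 7 genes in the platform annotation. They number 24 of the 44988 probe sets that name 1 gene, and the 7 genes are 7 of 18132. The family was taken up because YWHAE stood among the lower genes of this contrast, so the values of the members are given as a description, without a test, and support nothing beyond it.

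The 14-3-3 proteins are acidic adaptor proteins that form homo- and heterodimers and bind other proteins at short motifs holding a phosphorylated serine or threonine. Through that grip they keep partners in the cytoplasm, hold enzymes in an active or inactive shape and shield them from phosphatases. The genes encode the isoforms beta (YWHAB), epsilon (YWHAE), gamma (YWHAG), eta (YWHAH), theta (YWHAQ), zeta (YWHAZ) and sigma (SFN, also called stratifin). Sigma is made mainly in stratified epithelia, forms mostly homodimers and is a target of p53 that holds cells at the border of G2 and mitosis. Epsilon and gamma are the isoforms best known for binding CDC25 phosphatases and for partnering with other isoforms.

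YWHAE and SFN are the members whose brightest probe sets stood farthest below and farthest above untreated cells, and for that reason the 250 bases before their starts are shown. The sequences are those of RefSeq, build GRCh38.p14, read 5′ to 3′ on the strand of the gene, at chr17:1400223-1400472 on the minus strand for YWHAE and chr1:26862899-26863148 on the plus strand for SFN. Capitals mark the motifs found: GGGCGG or its other strand CCGCCC, the GC box of SP1-type factors, and GCGTG or CACGC, the core read by the aryl hydrocarbon receptor and its partner.
YWHAE: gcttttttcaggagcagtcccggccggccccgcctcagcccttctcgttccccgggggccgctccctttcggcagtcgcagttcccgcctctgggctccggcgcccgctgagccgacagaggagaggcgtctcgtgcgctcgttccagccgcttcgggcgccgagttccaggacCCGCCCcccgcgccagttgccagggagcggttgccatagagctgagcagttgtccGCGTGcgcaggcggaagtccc
SFN: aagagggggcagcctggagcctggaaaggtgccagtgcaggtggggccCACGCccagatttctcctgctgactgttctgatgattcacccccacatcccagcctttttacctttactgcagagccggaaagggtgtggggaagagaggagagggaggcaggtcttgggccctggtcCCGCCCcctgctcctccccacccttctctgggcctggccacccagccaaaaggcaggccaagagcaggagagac
Each window held 1 GC box and 1 GCGTG core. Of 35116 such windows in the table, 42.6% held a GC box and 32.2% a GCGTG core on either strand, so both are common. The marked motifs do not overlap. The GC content was 71.2% for YWHAE and 62.8% for SFN, beside a median of 58.0% for all windows. The windows of YWHAB, YWHAG and YWHAQ held 4 GC boxes each and that of YWHAH 3. YWHAG held 2 GCGTG cores, and YWHAB, YWHAH and YWHAQ held none. The window of YWHAZ is not reported here, so the comparison does not cover the whole family. YWHAH alone of these 6 genes held TGACGTCA, the full cyclic AMP response element, found in 1.65% of all windows. It also held the only TATAAA or TTTATA among them (10.7% of all windows). CCAAT or ATTGG occurred 3 times for YWHAQ and once for YWHAB (32.0% of all windows). A match shows only that these letters are present, and the arrays carry no measure of binding.

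Signals are log2 values as deposited, so a difference of 1 is a 2-fold ratio. Probe sets differ in how well they bind, so a brighter probe set does not show a more abundant transcript, and brightest and dimmest below only name probe sets. The array medians were 6.55 for NSC-631570, 6.62 for untreated 1 and 6.57 for untreated 2. Probe sets with a mean over the 3 arrays below 5.85, the 40th percentile, were left out of tests, which left 29573, among them 23 of the 24 members. The treated array was below both untreated arrays in 18 of 24 member probe sets, where 33.4% of all 49293 non-control probe sets were. It was above both in 3 of 24, where 38.5% of all were. The median log2 difference of the members, treated minus the untreated mean, was −0.17, and that of all non-control probe sets was 0.02. Because the family was chosen with this contrast in view, nothing is read from the distance between these figures. The untreated arrays were close to each other in the members, with a median gap of 0.10 beside 0.17 over all non-control probe sets. The labels do not say whether the untreated arrays came from separate cultures, and the treated condition has no replicate.

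**Figure D1:**
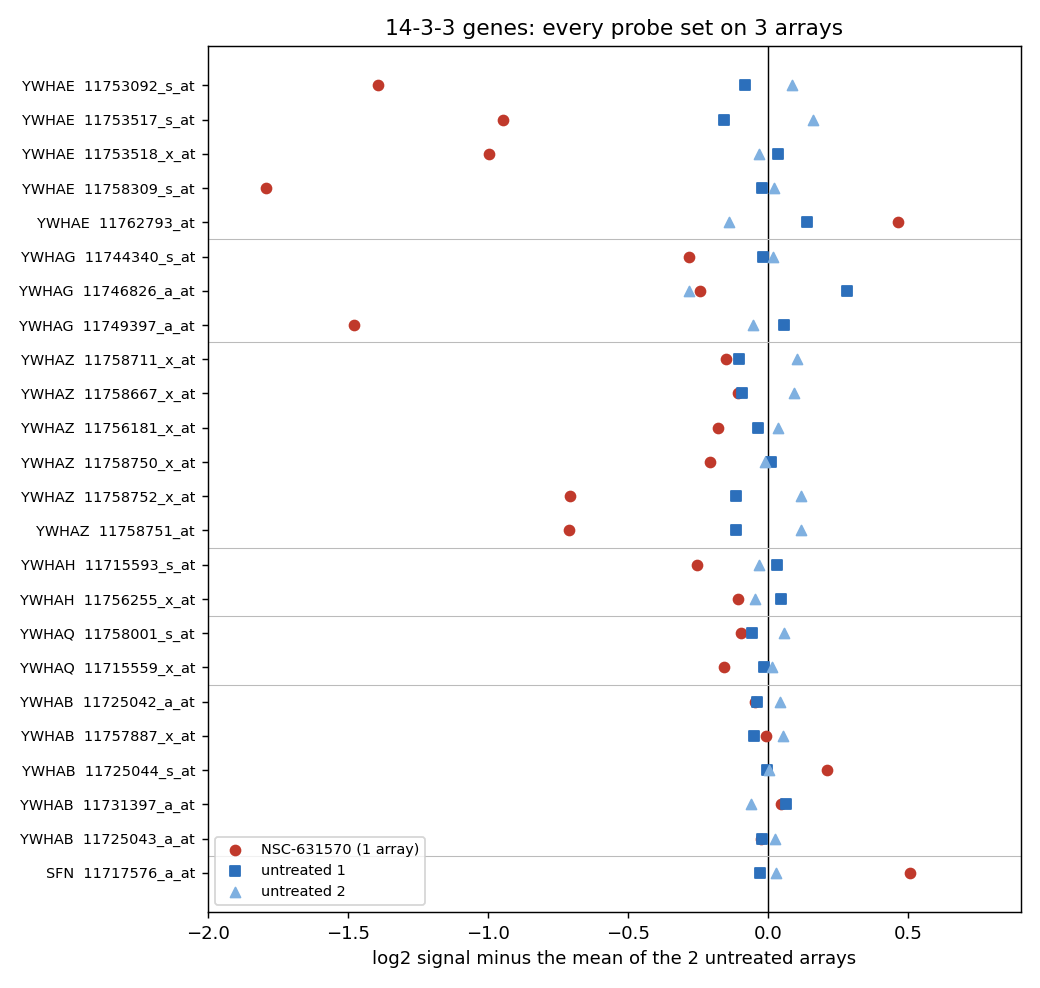
Every 14-3-3 probe set on the 3 arrays. The horizontal axis is the log2 signal minus the mean of the 2 untreated arrays, and each row is a probe set, from brightest to dimmest within a gene. Red circles are the NSC-631570 array, dark squares untreated 1 and light triangles untreated 2. The red circles of 4 YWHAE rows lie between −1.79 and −0.95, and that of SFN lies at 0.51.

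**Figure D2:**
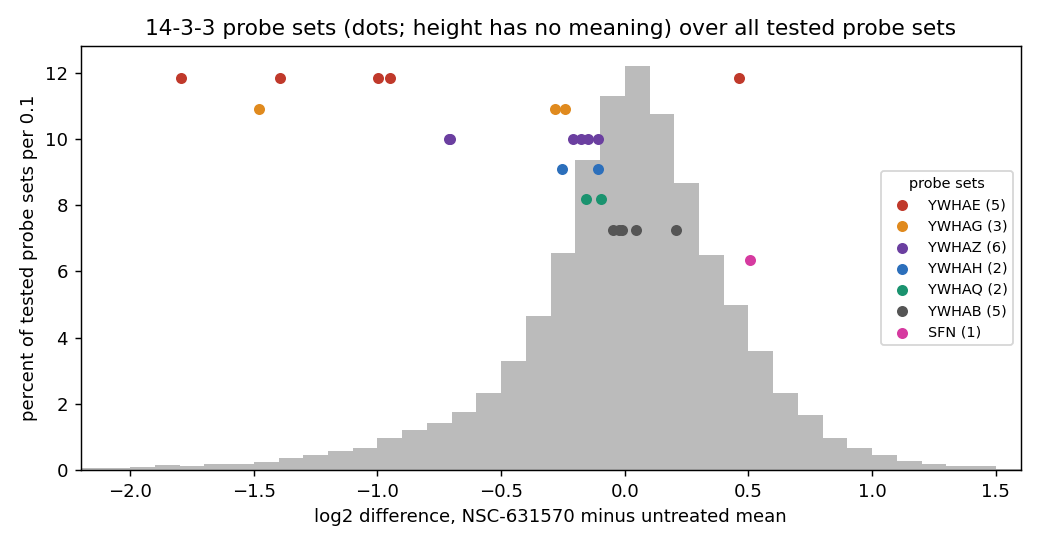
Members set against all tested probe sets. Grey bars give the percent of the 29573 tested probe sets per 0.1 of log2 difference, NSC-631570 minus the untreated mean. Dots are the 24 member probe sets by gene, placed at different heights only to keep them apart. Most of the dots stand near the middle of the grey bars, 4 dots of YWHAE and 1 of YWHAG stand in the left tail, and the fifth dot of YWHAE stands to the right at 0.46.

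YWHAE, the epsilon isoform, was lower in the treated array on its 4 brighter probe sets and higher on the dimmest. On its brightest probe set, 11753092_s_at, the signal was 9.26 with NSC-631570, against 10.56 and 10.73 in untreated cells. The treated value lay below both by far more than the gap of 0.17 between them, a log2 difference of −1.39 or a 2.62-fold lower signal. The largest difference was on 11758309_s_at, with 8.03 for NSC-631570 and 9.80 and 9.85 for untreated cells (−1.79, 3.47-fold lower). On such bulk RNA, less transcript per cell and fewer cells that hold it cannot be told apart. A lower difference than that of 11758309_s_at was found in 0.349% of all non-control probe sets. YWHAE was taken up for being low in this contrast, so nothing is read from this rank.

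The remaining bright probe sets of YWHAE, 11753517_s_at and 11753518_x_at, were designed on 1 target sequence and are not independent of each other. The first gave 9.49 with NSC-631570, against 10.28 and 10.60 in untreated cells (−0.95). The second gave 9.24 with NSC-631570, against 10.28 and 10.21 in untreated cells (−0.998). Both placed the 1 treated array below both untreated arrays, as 33.4% of all non-control probe sets did. The fifth, 11762793_at, read 5.77 with NSC-631570 and 5.45 and 5.17 in untreated cells (0.46), with a mean under the filter, so its own level is uncertain.

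A further probe set, 11739011_s_at, names YWHAE together with PAFAH1B1, which encodes a regulator of the dynein motor, and is outside the 24 for that reason. It read 12.28 with NSC-631570, against 11.88 and 11.81 in untreated cells, a log2 difference of 0.43 in the direction opposite to the bright YWHAE probe sets. The 7 probe sets of PAFAH1B1 alone ran from −0.57 to 0.37 with a median of 0.01, and the treated array was above both untreated arrays in 3 and below both in 3. The 3 above both were the brightest ones (0.21, 0.24 and 0.37), the same direction as the shared probe set. The 3 below both were the dimmest, and the one at −0.57 did not pass the filter. The shared signal cannot be divided between the 2 genes. YWHAEP7, a pseudogene of YWHAE, had a probe set of its own with 4.72 for NSC-631570 and 4.74 and 4.43 for untreated cells, all below the filter value. In Affymetrix naming the endings _s_at and _x_at mark probe sets with probes that can match other transcripts too, and all 4 bright YWHAE probe sets carry one of these endings.

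Of the 2082 genes with at least 4 tested probe sets, 190 (9.13%) had the treated array below both untreated arrays in all of them, and YWHAE was among these. At least 4 probe sets with a difference of −0.9 or lower, a bound set after the YWHAE values were seen, were found in 30 genes (1.44%), YWHAE included. The 4 tested YWHAE differences spanned 0.85. Over the 7124 genes with at least 2 tested probe sets the median span was 0.41, and 79.2% of them had a smaller span than YWHAE.

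The treated array also had lower signal toward the 5′ ends of control transcripts. The 5′ control probe set of ACTB, the beta-actin gene, read 12.23 with NSC-631570, against 13.61 and 13.60 in untreated cells (−1.37, 2.59-fold lower). Its middle probe set differed by −0.09 and its 3′ probe set by 0.20. For GAPDH, a glycolytic enzyme gene, the 5′ probe set read 14.004 with NSC-631570, against 14.45 and 14.51 in untreated cells (−0.48), while the middle and 3′ ones differed by −0.20 and −0.01. The difference of ACTB at its 5′ end is of the same size as that of YWHAE on its brightest probe set. Where the 14-3-3 probe sets lie along their transcripts was not used here, and the part of this 5′ signal in the member values was not tested.

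**Figure D3:**
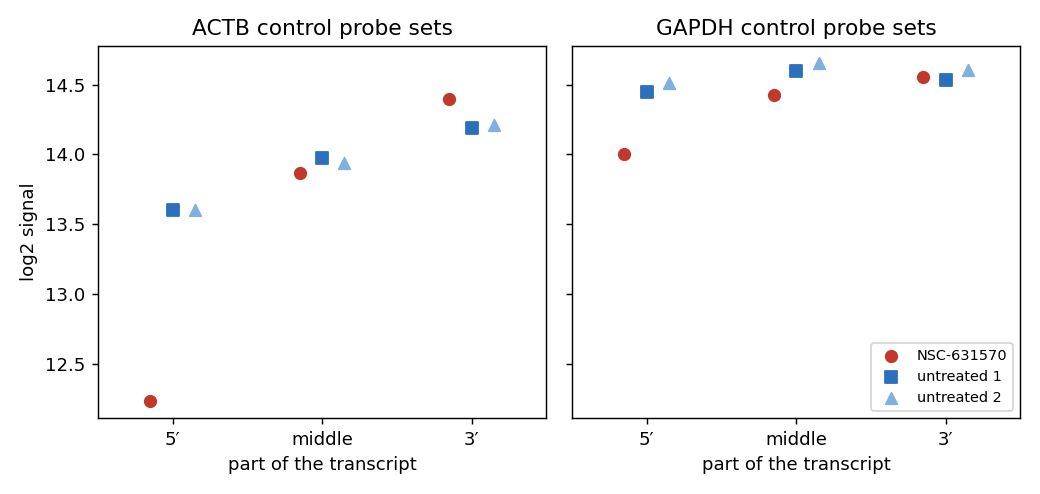
Control probe sets for the 5′ end, middle and 3′ end of ACTB and GAPDH. The vertical axis is the log2 signal, and symbols are the NSC-631570 array (red circles), untreated 1 (dark squares) and untreated 2 (light triangles). The treated array is lowest at the 5′ end of both genes, with log2 differences of −1.37 for ACTB and −0.48 for GAPDH.

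YWHAG, the gamma isoform, was lower by a small amount on its brightest probe set and by a large one on its dimmest. On 11744340_s_at the signal was 12.01 with NSC-631570, against 12.28 and 12.31 in untreated cells (−0.28). On 11749397_a_at it was 5.56 with NSC-631570, against 7.10 and 6.99 in untreated cells (−1.48, 2.79-fold lower). The treated signal there is below the filter value of 5.85, so the size of this ratio is uncertain. The third, 11746826_a_at, gave 8.87 with NSC-631570, against 9.40 and 8.83 in untreated cells, and the treated value lay between the untreated ones. Measured from untreated 2 alone that difference was 0.04, and from untreated 1 alone −0.52. The span over the 3 YWHAG probe sets was 1.24, larger than in 91.4% of genes with at least 2 tested probe sets. It rests on 11749397_a_at, which passed the filter only through its untreated signals, so nothing is read from this rank.

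YWHAZ, the zeta isoform, was below both untreated arrays on all 6 probe sets. Among genes with at least 4 tested probe sets, 9.13% were below both on all of them. On 11758667_x_at and 11758711_x_at the treated value lay only 0.02 and 0.05 below untreated 1. The medians of these arrays, 6.55 and 6.62, lie farther apart than that, so the count of 6 depends on the scaling. The brighter 4 of YWHAZ differed by little, between −0.21 and −0.11. The brightest, 11758711_x_at, read 13.81 with NSC-631570, against 13.86 and 14.06 in untreated cells (−0.15). That distance is smaller than the gap of 0.21 between the untreated arrays. The 2 dimmer probe sets, built on 1 target sequence, differed more. On 11758752_x_at the signal was 10.98 with NSC-631570, against 11.57 and 11.81 in untreated cells (−0.71, 1.63-fold lower). On 11758751_at it was 7.61 with NSC-631570, against 8.21 and 8.44 in untreated cells (−0.71). Of the 6 probe sets, 5 carry the ending _x_at.

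YWHAH, the eta isoform, and YWHAQ, the theta isoform, each had 2 probe sets that were slightly lower. The first of YWHAH, 11715593_s_at, gave 10.89 with NSC-631570, against 11.18 and 11.12 in untreated cells (−0.26). The second, 11756255_x_at, gave 10.92 with NSC-631570, against 11.07 and 10.98 in untreated cells (−0.11). An RNA read from the other strand at this locus, YWHAH-AS1, had 3 probe sets, of which the only one past the filter read 7.17 with NSC-631570 and 7.48 and 7.69 in untreated cells (−0.41).

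For YWHAQ, 11758001_s_at read 12.02 with NSC-631570, against 12.06 and 12.17 in untreated cells (−0.10), a smaller distance than the untreated gap of 0.11. The other, 11715559_x_at, read 11.55 with NSC-631570, against 11.69 and 11.72 in untreated cells (−0.16). A probe set that names YWHAQ and its pseudogene YWHAQP8 together went slightly the other way, with 11.89 for NSC-631570 and 11.86 and 11.80 for untreated cells (0.06). The 2 probe sets of YWHAQP8 alone hold identical values, 5.71 for NSC-631570 and 6.12 and 5.95 for untreated cells.

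YWHAB, the beta isoform, differed least. Its 5 probe sets lay between −0.05 and 0.21 with a median of −0.01. The brightest, 11725042_a_at, read 13.34 with NSC-631570, against 13.35 and 13.43 in untreated cells (−0.05). Only 11725044_s_at, with 13.06 for NSC-631570 and 12.85 and 12.86 for untreated cells (0.21), stood clear of the untreated pair. Built on the same target sequence, 11725043_a_at read 10.19 with NSC-631570, against 10.19 and 10.24 in untreated cells (−0.02). On 11757887_x_at and 11731397_a_at the treated value lay between the untreated values.

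SFN, the sigma isoform, was the only member whose brightest probe set was higher in the treated array, and it has just 1 probe set that names it alone. That probe set, 11717576_a_at, read 13.96 with NSC-631570, against 13.43 and 13.48 in untreated cells. The treated value was above them by 0.53 and 0.48, beside a gap of 0.06 between them. The log2 difference of 0.51 is a 1.42-fold higher signal, and 92.8% of all non-control probe sets had a lower difference.

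Ordered by the median over its probe sets, YWHAE stood lowest at −0.998, followed by YWHAG at −0.28, YWHAZ at −0.19, YWHAH at −0.18, YWHAQ at −0.13, YWHAB at −0.01 and SFN at 0.51. YWHAZ, YWHAH and YWHAQ lie closer to each other than the untreated arrays often lie within 1 of their probe sets, so their order has no weight. Without YWHAE the remaining 19 probe sets had a median of −0.15, and 15 of the 24 lay within 0.3 of the untreated mean in either direction. At least 2-fold below both untreated arrays were 3 of 24 probe sets, 2 of YWHAE and 1 of YWHAG, where 1.67% of all non-control probe sets were. Nothing is read from that count, since the family was chosen on this contrast and the YWHAG probe set passed the filter only through its untreated signals.

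The lists of genes that act around the 14-3-3 proteins do not include the members, but were chosen with earlier results of these data known. Their p-values are therefore a description and support nothing beyond it. The genes were each taken by the brightest probe set. They were tested with limma, a linear model with moderated variances fitted over all tested probe sets, at an adjusted p under 0.05. In simulated data this fit called 8 of 50 probe sets changed 2-fold, so a gene not called is not shown to be unchanged. Of all 11932 tested genes taken so, 22.5% were below both untreated arrays and 51.6% above both, 0.243% were called lower and 0.897% called higher by limma, and the median difference was 0.12. Of 41 client phosphoproteins, whose phosphorylated sites 14-3-3 proteins hold, 38 were named here and 36 passed the filter. Among these, 11 were below both untreated arrays, 16 above both, 1 rose by limma and none fell. The median difference was 0.12, equal to that of all tested genes.

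The client that rose was WWTR1, which encodes TAZ, a Hippo pathway coactivator that 14-3-3 proteins keep in the cytoplasm. Its signal was 10.25 with NSC-631570, against 9.07 and 9.20 in untreated cells (log2 difference 1.12 ± 0.22, SE, limma adjusted p = 0.0415), and its 2 other probe sets had a median of 0.91. The limma adjusted p of WWTR1 lay between 0.0319 and 0.149 over 8 other settings and missed the threshold without a filter (0.0609), with arrays quantile-normalised (0.0671), with only the brightest probe set of each gene in the fit (0.109) and with the mean of its probe sets (0.149). FOXO3, a forkhead factor that 14-3-3 proteins keep out of the nucleus after AKT phosphorylation, stood at −1.01 with 9.39 for NSC-631570 and 10.46 and 10.33 for untreated cells (limma adjusted p = 0.0558). Its 2 other probe sets had a median of −1.40. KRT18, a keratin of simple epithelia bound by 14-3-3 in mitosis, stood at −0.99 with 13.09 for NSC-631570 and 13.96 and 14.21 for untreated cells (limma adjusted p = 0.0661). HDAC5, a class IIa histone deacetylase exported from the nucleus with 14-3-3, stood at 0.92 with 8.23 for NSC-631570 and 7.08 and 7.54 for untreated cells, but its 2 other probe sets had a median of 0.04.

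Kinases that write 14-3-3 binding sites numbered 27 in the list, of which 24 were named and 22 tested. Of these 13 were above both untreated arrays and 3 below both, with a median of 0.20, and none was called by limma in either direction. Of all tested genes taken so, 51.6% were above both and 22.5% below both, so nothing is read from this count. Each gene is counted by 1 probe set, and its other probe sets can differ in direction. AKT1, the kinase that marks FOXO factors and BAD, stood at 0.65 with 10.65 for NSC-631570 and 10.08 and 9.93 for untreated cells, and its 2 other probe sets had a median of 0.03. RPS6KA1, a ribosomal S6 kinase below ERK, stood at 0.49, MARK2, a polarity kinase, at 0.44 and PRKD1, protein kinase D, at 0.40. The 3 other probe sets of RPS6KA1 had a median of −0.25, with 1 above both untreated arrays and 2 below both, and the other probe set of MARK2 differed by −0.66.

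Of 12 genes for protein phosphatases 1 and 2A, which take the phosphate off such sites, 4 were above both untreated arrays, 4 below both and none was called. The regulatory subunit genes PPP2R5D (−0.48), PPP2R2A (−0.29) and PPP2R5A (0.28) and the catalytic PPP1CA (0.20) were farthest from untreated cells. All 4 genes for enzymes that modify 14-3-3 proteins themselves were above both untreated arrays and none was called. These were MAPK8 (0.46), a JNK kinase that phosphorylates several isoforms so that they release clients, HDAC6 (0.33), PRKCD (0.16) and CSNK1A1 (0.07). Other probe sets stood at a median of −0.12 for MAPK8, 0.29 for HDAC6, −0.41 for PRKCD and −0.05 for CSNK1A1, below 0 for 3 of the 4 genes. Of all tested genes by brightest probe set, 51.6% were above both untreated arrays and 22.5% below both. Nothing is read from the counts of these 2 lists.

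In the list for the regulation of SFN and the p53 response, 9 of 11 genes were named and tested, 3 were below both untreated arrays, 3 above both and none was called. The shares over all tested genes were 22.5% below both and 51.6% above both, and nothing is read from this count. TRIM25, the ubiquitin ligase that drives the breakdown of the sigma protein, read 8.59 with NSC-631570, against 9.69 and 9.42 in untreated cells (−0.97, limma adjusted p = 0.0724), and its other probe set differed by −0.76. CDKN1A, which encodes the p53-induced CDK inhibitor p21, read 11.15 with NSC-631570, against 10.35 and 10.37 in untreated cells (0.80), and its other probe set differed by 0.65. GADD45A, a stress sensor also induced by p53, read 11.82 with NSC-631570, against 12.45 and 13.30 in untreated cells (−1.05). The 2 untreated values of GADD45A lay 0.85 apart. SESN2, a sestrin of the stress response, stood at −0.61, but only −0.01 from untreated 1 and −1.20 from untreated 2. SESN1 (0.38), a related sestrin, and MDM2 (0.15), the ubiquitin ligase of p53, were also above both untreated arrays, and are named here to complete the count. The 10 other probe sets of MDM2 had a median of −0.38, and the other of SESN1 differed by 0.30.

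**Figure D4:**
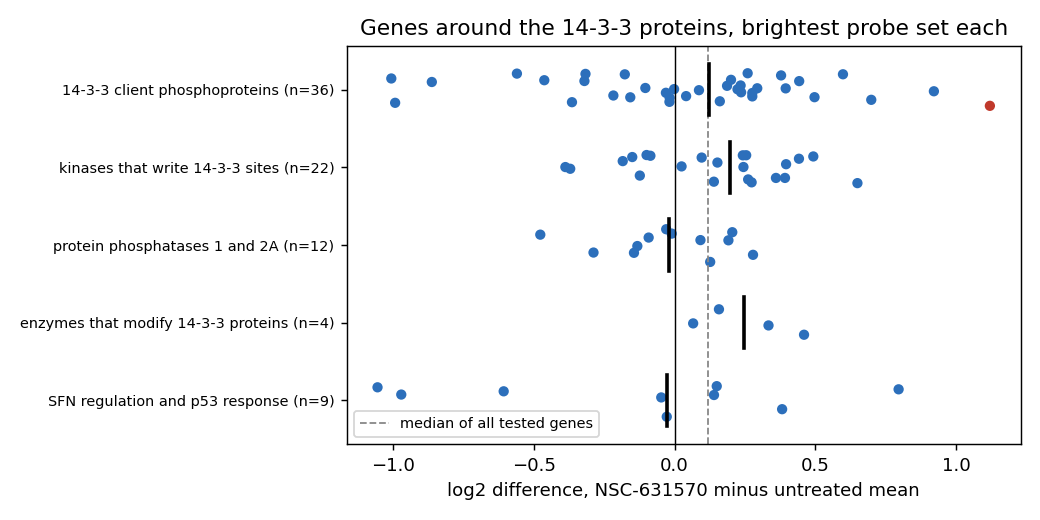
Genes around the 14-3-3 proteins, each by its brightest probe set past the filter. The horizontal axis is the log2 difference, NSC-631570 minus the untreated mean, each dot is a gene, short black bars are list medians and the dashed line is the median of all tested genes at 0.12. The red dot is WWTR1 at 1.12, the only gene of these lists past the limma threshold.

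Markers of squamous epithelium and of other cells are given by their signals. Detection was not called for any, and since probe sets bind differently, these levels cannot settle which cell types were present. The 5 squamous epithelial markers named here had log2 signals between 9.61 and 12.91 with NSC-631570 and between 9.46 and 13.39 in untreated cells. Of 6 fibroblast markers the signals were between 3.58 and 6.20 with NSC-631570 and between 3.50 and 6.21 in untreated cells. The 4 leukocyte markers lay between 3.78 and 7.42 with NSC-631570 and between 3.72 and 7.07 in untreated cells. Of these PTPRC, the pan-leukocyte surface phosphatase, read 3.78 with NSC-631570 and 3.72 in each untreated array, below the filter value. The other 3 passed the filter. CD14 read 7.42 with NSC-631570, against 7.03 and 6.17 in untreated cells. CD79A read 6.94 with NSC-631570, against 7.07 and 6.93, and CD3E read 6.05, against 6.04 and 5.65. The endothelial markers lay between 6.57 and 7.40 with NSC-631570 and between 6.37 and 7.79 in untreated cells.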

How the data were processed

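The authors deposited log2 signals, 1 per probe set and array, made with Affymetrix Expression Console per the submitters' processing notes. The algorithm, version and array normalization were not given in the sources used here, and the log2 scale was read from the values. They were used as deposited. Per the labels, 100 ng of RNA were amplified and labelled with biotin. The 49395 probe sets, 102 of them array controls, were named through the platform annotation. All member probe sets were kept. NSC-631570 was compared with untreated by limma (version 3.58.1, R version 4.3.3) over 29573 probe sets at or above the 40th percentile, with Benjamini-Hochberg adjustment at 0.05. Only the untreated arrays give residual variance (1 degree of freedom), moderated with 6.93 prior degrees of freedom, so p-values measure only the spread between 2 arrays and assume that the treated array varies alike. The fit was tested on simulated data, where it called 8 of 50 probe sets changed 2-fold and 49 of 50 changed 4-fold. It also called 50 of 50 changed 8-fold and 50 of 50 changed 16-fold. Of 29373 unchanged ones it called 24, which is a larger share of all its calls than the threshold of 0.05. The number of arrays limits the precision. List genes are represented by their brightest probe set, and up to 4 per list, those farthest from untreated, are named, with any past the threshold. The members and lists were chosen with earlier results of these data known. Alternatives were other scalings, filters, gene summaries, prior variances, a 1.5-fold rule and leaving out each untreated array. Some list genes are not reported here.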

Additional observations from a re-analysis of the deposited data

How the results depend on the processing

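No sign changed among the YWHAE, YWHAZ, YWHAH, YWHAQ and SFN probe sets under the scalings, filters and omissions tried. Signs changed for 3 YWHAB probe sets with differences of 0.05 or less in size, and for 11746826_a_at of YWHAG (−0.24), which was 0.04 without untreated replicate 1. After the 3 array medians over all probe sets were set equal, 13 of the 24 members were below both untreated arrays, in place of 18. The count of 18 thus depends on the scaling. The median of the 24 members was −0.17, and −0.13 with those array medians equal. Without the _x_at probe sets, an alternative chosen after seeing the data, it was −0.24 over 15 probe sets, and 10 of these were below both untreated arrays in place of 18 of 24. It ran from −0.20 to −0.15 when an untreated array was left out. The 955 probe sets at least 2-fold from both untreated arrays became 3270 at 1.5-fold, 590 with the filter at the 60th percentile, and 1618 to 1729 against a single untreated array. The 971 probe sets called by limma became 1261 with equal medians over the tested probe sets, 1117 with a prior variance that follows intensity, 884 with equal medians over all, 483 with the filter at the 60th percentile, 611 without a filter, 497 after quantile normalisation, 8 with each gene by its brightest probe set and 3 by the mean of its probe sets. With 1 array a side limma has no residual degree of freedom and was not run. The cause of these shifts was not tested. No paired analysis was possible because the treated group has 1 array. The comparison of protein sequences that had been planned was not run, since no protein sequences were used here.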

Other observations

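Over the whole array the direction of the differences depended on which probe set of a gene was read. The 11932 tested probe sets that are the brightest of their gene had a median difference of 0.12, and limma called 107 of them higher and 29 lower within the fit of all probe sets. The 15317 tested probe sets that are not the brightest of their gene had a median of −0.05, with 68 called higher and 687 lower. In the 14-3-3 family both kinds stood on the lower side, with medians of −0.15 for the 7 brightest and −0.18 for the other 17. The family was chosen on this contrast, so nothing is read from its place beside the whole array.

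The genes whose brightest probe set had the profile nearest to that of YWHAE over the 3 arrays, by Euclidean distance after centring on the untreated mean, were SLC39A7, a zinc transporter (log2 difference −1.49, distance 0.11), AFMID, an enzyme of tryptophan breakdown (−1.33, distance 0.12), CALR, a chaperone of the endoplasmic reticulum (−1.28, distance 0.12), and USF1, an E-box transcription factor (−1.38, distance 0.18). The other probe sets of SLC39A7 had a median of −0.99, and those of AFMID and CALR stood at −0.31 and −0.37. Nearest to SFN were ZNF692 (0.50), LGALS3, which encodes galectin-3 (0.50), NACC2 (0.51) and LONRF3 (0.49). With 3 arrays many genes share a profile, and these names are a description.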
